A study of Homo sapiens with 41 samples.

Results

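The polyamine synthesis and control genes are a set of 8 genes chosen by name, of 58721 genes counted in a serum-stimulation time course, and all 8 passed the filter on low counts. They are ODC1, AMD1, SRM and SMS, which make polyamines, SAT1, which starts their breakdown, and AZIN1, OAZ1 and OAZ2, which set the activity and lifetime of the ODC1 protein. T98G, the line used, is an established human glioblastoma line, and its cells leave the cycle in serum-free medium. In all 41 samples the cells were held in serum-free medium for 72 hours and then given medium with 20% fetal calf serum, and they were lysed at 0 min (no serum given back) and every 10 min up to 400 min. Total RNA depleted of ribosomal RNA was sequenced from 1 library at each time point, so no time point has a replicate, and the cells are a single line. Over the course ODC1, AMD1, SMS and SRM rose and AZIN1 rose by less. On curves fitted to the counts, SAT1 rose early and was below its start by 120 min, and OAZ2 was below its start by 240 min. OAZ1 passed the test at none of the times compared.

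Putrescine, spermidine and spermine are small positively charged amines that bind nucleic acids and are needed for growth. ODC1, ornithine decarboxylase, makes putrescine in the step that limits the pathway, and its induction by growth factors is a classic serum response. AMD1 decarboxylates S-adenosylmethionine to give the aminopropyl donor, which SRM, spermidine synthase, adds to putrescine and SMS, spermine synthase, adds to spermidine. SAT1 acetylates spermidine and spermine, which marks them for export or oxidation. The antizymes OAZ1 and OAZ2 bind ODC1 monomers, deliver them to the proteasome and slow polyamine uptake. AZIN1 is a relative of ODC1 without decarboxylase activity that binds antizyme and so releases ODC1. These levels are of RNA; much of the control of ODC1, AMD1, SAT1 and the antizymes is known to act on translation and protein lifetime, which a gene count does not measure.

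The clearest case of such control is the antizyme messages, shown here because their RNA levels alone do not set antizyme output. Ribosomes reach a stop codon and make full-length antizyme only by moving the reading frame by 1 base, which polyamines promote. In the GENCODE annotation (release 44, GRCh38) the base passed over is base 2271443 of chromosome 19 for OAZ1, after 68 codons, and base 64691515 of chromosome 15 for OAZ2, after 32 codons. The 30 bases around it lie in the coding sequence and are given in the direction of the gene, with the last codon of the starting frame and the stop codon in capitals, from chr19:2271429-2271458 (+ strand) and chr15:64691500-64691529 (- strand).
OAZ1: ctcggtggtgcTCCTGAtgcccctcaccca
OAZ2: ctctgtggtgcTCCTGAtgcccctcaccca
The sites are identical at 29 of 30 positions. They differ by G4T, counted from 1 at the 5′ end with the base of OAZ1 first.

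RefSeq start-site windows (GRCh38.p14, 250 bases before and 50 after an annotated start) were on hand for 7 of the 8 genes and were searched on both strands. ODC1 and SRM are shown because theirs hold the letters CACGTG, the E-box that MYC and MAX bind, and because ODC1 is a textbook MYC target through such a pair in its first intron. The ODC1 window is that of a downstream start, chr2:10447963-10448262 (- strand). Its E-boxes lie in intron 1 of the main transcript, 286 and 320 bases into the gene. The SRM window is chr1:11059969-11060268 (- strand), with its E-box outside the gene, 197 bases before the start. E-boxes are in capitals.
ODC1: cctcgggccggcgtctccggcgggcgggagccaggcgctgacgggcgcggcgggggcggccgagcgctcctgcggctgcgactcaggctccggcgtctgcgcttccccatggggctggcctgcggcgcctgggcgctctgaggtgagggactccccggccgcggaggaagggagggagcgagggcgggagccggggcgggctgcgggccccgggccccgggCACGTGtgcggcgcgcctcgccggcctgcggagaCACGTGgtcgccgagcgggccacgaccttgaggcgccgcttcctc
SRM: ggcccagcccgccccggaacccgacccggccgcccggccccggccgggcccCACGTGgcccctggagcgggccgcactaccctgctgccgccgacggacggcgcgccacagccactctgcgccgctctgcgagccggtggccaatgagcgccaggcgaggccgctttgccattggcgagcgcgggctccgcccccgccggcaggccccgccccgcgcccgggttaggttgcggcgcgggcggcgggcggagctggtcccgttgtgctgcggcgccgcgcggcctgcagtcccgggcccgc
CACGTG occurred in 7.26% of all 35116 windows of this length. Of the 7 genes' windows nearest to the annotated gene start, 1 held CACGTG (SRM), 1 held TATAAA (OAZ1, against 11.5% of all windows), 4 held CCAAT (OAZ1, SAT1, SMS and SRM, against 34.6%) and 4 held TGACG, the half-site of the cAMP response element (AMD1, ODC1, SAT1 and SMS, against 24.6%). None of these motifs overlapped another. A match is a description of the letters, not a bound site.

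The deposited counts came to 18206982 at 20 min, the smallest library, and to 64948114 at 70 min, the largest. A normalized count is a count over the size factor of its library, set by the median of ratios and between 0.447 and 1.60 here, and is the level given below unless a ratio of counts or a log2 change is named. The lowest count of a polyamine gene in any library was 215, for SRM. VIM, CD44, FN1 and NES, the mesenchymal and progenitor list, had median normalized counts of 50281, 24812, 135288 and 37.4. Of the 4 astrocyte markers, GFAP, S100B and AQP4 never passed 6.23, and SLC1A3 had a median of 425, so the list summed to 248 to 624. The oligodendrocyte list summed to at most 24.6, the leukocyte list summed to at most 12.1 and the endothelial list to at most 51.6, and the neuron list to 402 to 755, of which SNAP25 had a median of 561 and RBFOX3 a median of 0. In bulk RNA, fewer cells and less RNA per cell cannot be told apart.

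Each gene's counts were fitted with a smooth curve of time in edgeR, a natural cubic spline, and a log2 change is the difference of the curve between times. Its SE comes from the scatter of all 41 libraries about the curves. A change was called at an adjusted p below 0.01 (edgeR quasi-likelihood test, Benjamini-Hochberg over 21629 genes). Of the 8 genes, 2 were higher at 30 min than at 0 min, against 1.71% of all genes tested, and 3 were higher at 60 min, against 5.15%. At 120 min 5 were higher (13.6% of all genes) and 1 was lower (6.75%). At 240 min 5 were higher (21.6%) and 2 lower (18.5%), as they were at 400 min, when 24.2% of all genes were higher and 22.4% lower. With edgeR, 0 of the 8 were lower at 30 min (0.342% of all genes) or at 60 min (1.23%), 0 at an unadjusted p below 0.05 and 0 with DESeq2. The comparisons with 0 min share that library, so they are not independent of each other. The median log2 change of the 8 genes at 400 min was 0.89, and that of all genes with a mean normalized count of at least 50 was 0.08.

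**Figure D1:**
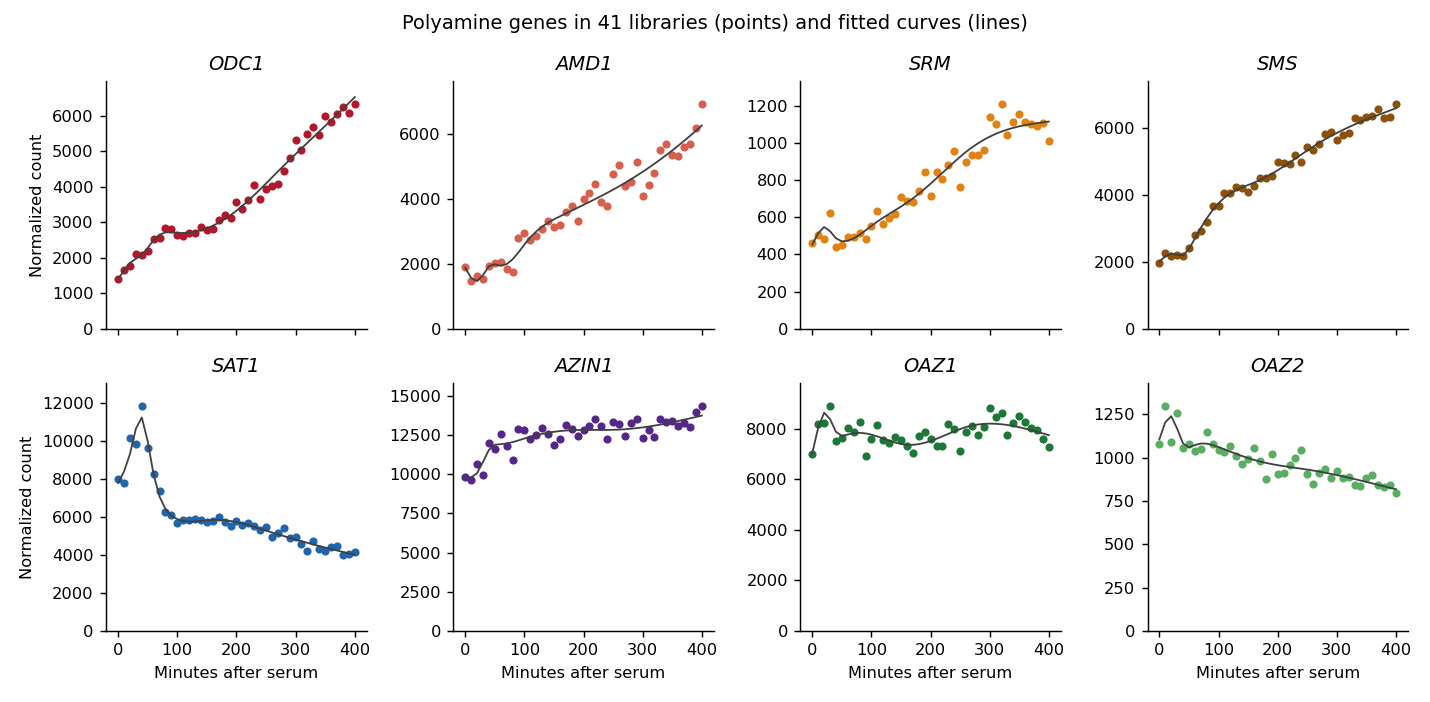
Normalized count (vertical axes, each from 0) against minutes after serum for the 8 polyamine genes, with 1 point for each of the 41 libraries and the fitted curve as a line. ODC1, AMD1, SRM and SMS climb, SAT1 peaks at 40 min and then declines, and AZIN1 climbs slowly after 40 min to its highest at 400 min. OAZ1 stays between 6918 and 8909, and OAZ2 declines to 794 at 400 min.

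ODC1, the entry enzyme, rose in 2 stages. ODC1 had normalized counts of 1407, 2101, 2537, 2707, 3656 and 6349 at 0, 30, 60, 120, 240 and 400 min. The first of these is the lowest of the course and the last the highest. The 6 libraries from 350 to 400 min lay between 5827 and 6349 (median 6072), against 1407 to 2181 (median 1921) in the 6 from 0 to 50 min, so these windows did not overlap. For ODC1 the log2 change against 0 min was 0.50 ± 0.083 (SE) at 30 min (adjusted p = 4.22e-05), 0.84 ± 0.075 at 60 min and 2.22 ± 0.081 at 400 min (adjusted p = 5.94e-27). Between these stages it stayed between 2537 and 3055 in the 12 libraries from 60 to 170 min, and then climbed to between 3115 and 6349 in the 23 libraries from 180 to 400 min. As a straight line, the log2 normalized count gained 0.71 ± 0.055 per hour from 0 to 80 min (SE, 9 libraries), 0.06 ± 0.040 from 80 to 170 min (10 libraries) and 0.30 ± 0.013 from 170 to 400 min (24 libraries). These spans were set after the values were seen, so they describe the shape and carry no test. The same holds for the spans given for the other genes below, apart from the windows of 0 to 50 and 350 to 400 min. Without the 0 min library, whose place on the curve is then extrapolated, the 400 min change was 2.28 and stayed called, and the 30 min change was 0.56 with an adjusted p of 0.55. Scaled by spike-ins, the changes at 30 and 60 min were 0.36 and 0.61 and were not called (adjusted p = 0.81 and 0.11).

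AMD1 followed later and with a step. AMD1 had normalized counts of 1915, 1548, 2065, 2849, 3771 and 6944 at 0, 30, 60, 120, 240 and 400 min. The 6 libraries from 350 to 400 min, at 5340 to 6944 (median 5659), lay above the 6 from 0 to 50 min, at 1460 to 2020 (median 1767). All 9 libraries to 80 min lay between 1460 and 2065, and the 7 from 90 to 150 min between 2731 and 3335. The cut between them was set after the values were seen, so this gap describes the shape and carries no test. For AMD1 the log2 change was 0.05 ± 0.14 at 60 min (adjusted p = 0.90), 0.67 ± 0.14 at 120 min (adjusted p = 0.00024) and 1.74 ± 0.15 at 400 min (adjusted p = 2.53e-12). The neighbors of the step stand off the curve on opposite sides, by -0.29 at 80 min and 0.24 at 90 min on the log2 scale, so its sharpness rests on those libraries. With the 0 min library left out the changes at 120 and 240 min, 0.91 and 1.40, were no longer called (adjusted p = 0.21 and 0.012), while that at 400 min was. Scaled by spike-ins, the 120 min change was 0.68 and not called (adjusted p = 0.15).

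SMS, which makes spermine, lay closest to its curve of the 8, with a scatter of 0.039 (SD) on the log2 scale, against 0.121 for AMD1 and 0.106 for SRM. SMS had normalized counts of 1970, 2201, 2798, 4060, 4993 and 6739 at 0, 30, 60, 120, 240 and 400 min. The late window of 350 to 400 min held 6311 to 6739 (median 6352), against 1970 to 2406 (median 2190) from 0 to 50 min, with no overlap. The 5 libraries from 0 to 40 min lay between 1970 and 2276, after which the log2 count gained 0.72 ± 0.060 per hour from 50 to 110 min (SE, 7 libraries) and 0.16 ± 0.0057 from 110 to 400 min (30 libraries). For SMS the log2 change was 0.42 ± 0.056 at 60 min (adjusted p = 1.05e-07), 1.01 ± 0.057 at 120 min and 1.71 ± 0.061 at 400 min (adjusted p = 2.29e-27). When the 0 min library was left out, the change at 60 min was 0.20 and was not called (adjusted p = 0.81), and it was 0.20 with spike-in scaling (adjusted p = 0.65).

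SRM, which makes spermidine, was with AMD1 the last of the rising genes to be called. SRM had normalized counts of 464, 623, 495, 561, 955 and 1008 at 0, 30, 60, 120, 240 and 400 min. Its highest, 1211, stood at 320 min. From 350 to 400 min it lay between 1008 and 1153 (median 1105), against 438 to 623 (median 473) from 0 to 50 min. The 11 libraries to 100 min did not pass 623 and the 21 from 200 to 400 min did not go under 715. For SRM the log2 change was 0.06 ± 0.12 at 60 min (adjusted p = 0.85), 0.40 ± 0.12 at 120 min (adjusted p = 0.0096), 0.99 ± 0.12 at 240 min and 1.30 ± 0.13 at 400 min (adjusted p = 5.93e-12). The call at 120 min was made in 11 of 23 settings tried, and was lost without the 0 min library (0.67, adjusted p = 0.32), without the 30 min library (0.34, adjusted p = 0.019) and with spike-in scaling (0.39, adjusted p = 0.27). The calls at 240 and 400 min held in all 23.

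SAT1, the acetylase of polyamine breakdown, first rose and then fell below its start. SAT1 had normalized counts of 7972, 9848, 8236, 5805, 5323 and 4130 at 0, 30, 60, 120, 240 and 400 min. The highest, 11847, stood at 40 min. The 9 libraries from 0 to 80 min stood at 7972, 7779, 10165, 9848, 11847, 9592, 8236, 7346 and 6235, so the rise and its reversal were each carried by several neighbors. After the peak the log2 count changed by -1.05 ± 0.10 per hour from 40 to 100 min (SE, 7 libraries), then stayed between 5530 and 6004 in the 13 libraries from 100 to 220 min, and changed by -0.16 ± 0.015 per hour from 220 to 400 min (19 libraries). For SAT1 the log2 change was 0.45 ± 0.077 at 30 min (adjusted p = 6.55e-05), 0.08 ± 0.068 at 60 min (adjusted p = 0.60), -0.44 ± 0.064 at 120 min and -0.96 ± 0.066 at 400 min (adjusted p = 4.77e-17). All 6 libraries from 350 to 400 min, at 3985 to 4439 (median 4171), lay below all 6 from 0 to 50 min, at 7779 to 11847 (median 9720). The call at 30 min was made in 17 of 23 settings tried, and a spline with 5 degrees of freedom gave -0.17 at that time. With the 0 min library left out the change at 400 min was -0.69 and stayed called (adjusted p = 0.0030), and those at 30, 120 and 240 min were 0.76, -0.17 and -0.26 and were not (adjusted p = 0.055, 0.75 and 0.39). With spike-in scaling those at 30, 120 and 240 min were 0.33, -0.45 and -0.50 and were not called (adjusted p = 0.89, 0.18 and 0.042), while that at 400 min was.

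Of the genes that control ODC1, AZIN1, the antizyme inhibitor, rose by a small amount. AZIN1 had normalized counts of 9792, 9962, 12556, 12536, 12218 and 14381 at 0, 30, 60, 120, 240 and 400 min. The libraries from 350 to 400 min, at 13025 to 14381 (median 13347), lay above those from 0 to 50 min, at 9659 to 12008 (median 10296). From 50 to 340 min all 30 libraries lay between 10922 and 13557. For AZIN1 the log2 change was 0.28 ± 0.068 at 60 min (adjusted p = 0.0029) and 0.49 ± 0.070 at 400 min (adjusted p = 7.71e-08), and 0.10 ± 0.043 between 400 and 240 min (adjusted p = 0.060). When the 0 min library was left out, the changes at 60 and 400 min were 0.28 and 0.48, with the same direction and no call (adjusted p = 0.77 and 0.053). With spike-in scaling the change was 0.06 at 60 min and 0.53 at 400 min, neither of them called (adjusted p = 0.90 and 0.072), so the early rise depends on the scaling. Without the 60 min library that at 60 min was 0.25 (adjusted p = 0.012).

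OAZ1, the main antizyme, had the smallest log2 change of the 8 at 400 min and was called at no time compared. OAZ1 had normalized counts of 7008, 8909, 8034, 7548, 7974 and 7273 at 0, 30, 60, 120, 240 and 400 min. Its median over the course was 7865. The last 6 libraries, at 7273 to 8507 (median 7975), overlapped the first 6, at 7008 to 8909 (median 7913). For OAZ1 the log2 change was 0.25 ± 0.086 at 30 min (adjusted p = 0.080), 0.17 ± 0.071 at 240 min (adjusted p = 0.047) and 0.14 ± 0.078 at 400 min (adjusted p = 0.13), none of them called. All spline terms together did pass for OAZ1 (adjusted p = 0.0025), and this call was lost with equally spaced knots (adjusted p = 0.015 with 7 degrees of freedom) and with spike-in scaling (0.24). By that test of any change over the course all 8 genes passed, against 75.5% of all genes. In the Ljung–Box test, which asks whether neighboring time points resemble each other, 7 of 8 passed, against 60.9%, and OAZ1 did not (adjusted p = 0.094).

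OAZ2, the second antizyme, drifted down. Its log2 slope was -0.10 ± 0.028 per hour from 0 to 150 min (SE, 16 libraries) and -0.07 ± 0.012 from 160 to 400 min (25 libraries). OAZ2 had normalized counts of 1078, 1256, 1039, 1070, 1045 and 794 at 0, 30, 60, 120, 240 and 400 min. The last of these is the lowest of the course. The libraries from 350 to 400 min, at 794 to 903 (median 842), lay below those from 0 to 50 min, at 1055 to 1301 (median 1085). For OAZ2 the log2 change was 0.08 at 30 min, -0.04 at 60 min and -0.10 at 120 min, none called (adjusted p = 0.68, 0.84 and 0.42). It was -0.24 ± 0.076 at 240 min (adjusted p = 0.0073) and -0.44 ± 0.084 at 400 min (adjusted p = 1.98e-05). The call at 240 min was made in 15 of 23 settings tried and that at 400 min in 20. Without the 0 min library the changes at 240 and 400 min were -0.52 and -0.72 and were not called (adjusted p = 0.10 and 0.012). Nor were those with spike-in scaling, -0.19 and -0.40 (adjusted p = 0.45 and 0.11).

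Between 240 and 400 min 4 of the 8 genes were higher at the later time, against 14.8% of all genes, and 2 were lower, against 14.5%. The log2 change from this comparison was 0.73 ± 0.044 for ODC1, 0.58 ± 0.084 for AMD1, 0.34 ± 0.034 for SMS and 0.31 ± 0.073 for SRM, and it was -0.42 ± 0.044 for SAT1 and -0.20 ± 0.054 for OAZ2. That of OAZ2 was -0.18 and not called without the 400 min library (adjusted p = 0.029). With spike-in scaling ODC1 alone kept this call. The log2 changes were then 0.58 for AMD1, 0.34 for SMS, 0.31 for SRM, -0.43 for SAT1 and -0.20 for OAZ2, with adjusted p of 0.022, 0.070, 0.10, 0.032 and 0.31.

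**Figure D2:**
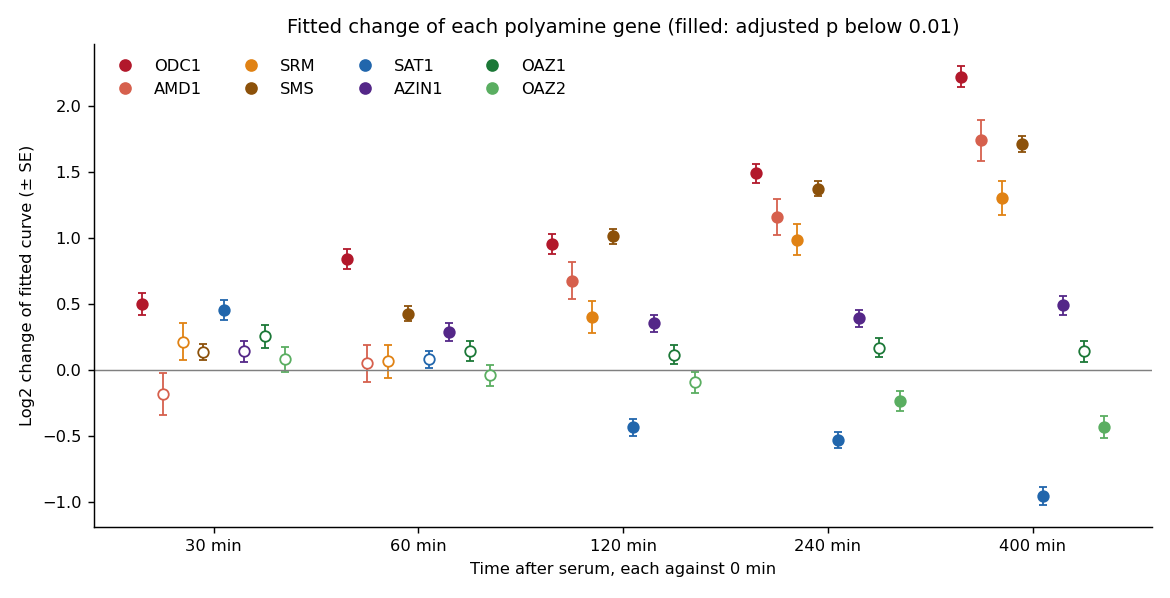
Log2 change of the fitted curve at 30, 60, 120, 240 and 400 min, each against 0 min (vertical axis), for the 8 polyamine genes, with bars of ± SE. Filled points passed an adjusted p below 0.01: ODC1 was called at all 5 times, SMS and AZIN1 from 60 min, AMD1 and SRM from 120 min, OAZ2 from 240 min, SAT1 upward at 30 min and downward from 120 min, and OAZ1 at none.

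The 5 rising genes reached the midpoint of their rise at different times. By the running mean of 3 libraries it was passed at 48.7 min by AZIN1, 163 min by SMS, 208 min by AMD1, 215 min by SRM and 240 min by ODC1. ODC1, the earliest called, is the last by this measure because its second stage is the larger in counts. With a running mean of 5 libraries the times were 59.0, 157, 211, 205 and 242 min, and with spike-in scaling 99.8, 169, 211, 205 and 234 min, so AMD1 and SRM change places. The highest count, the highest running mean and the highest point of the curve stood at 400, 390 and 400 min for ODC1, at 400 min by all of them for AMD1, SMS and AZIN1, and at 320, 310 and 400 min for SRM. A gene highest at the end of sampling may not have reached its peak. These are times of exon counts and not of gene induction. The paper proposes that gene length and transcript stability can mask induction times in mature mRNA. The genes span from 5437 bases for SRM and 8360 for ODC1 to 67754 for AZIN1, and the part of length or stability in this order was not tested.

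Since members of a pair share a library, ratios of their counts need no scaling between libraries. They are not corrected for transcript length, so their level does not give which RNA was the more abundant. Per kb of main transcript at 400 min, ODC1 was at 2564 and SAT1 at 3937, and AZIN1 was at 3427 and OAZ1 at 6335. The ratio of ODC1 to OAZ1 counts was 0.873 at 400 min and 0.201 at 0 min, the highest and lowest of the course. It ran from 0.705 to 0.873 in the 6 libraries from 350 to 400 min, against 0.201 to 0.286 in the 6 from 0 to 50 min, and its mean log2 was -0.38 ± 0.12 against -2.10 ± 0.23 (SD, n = 6 time points each), a difference of 1.72. For ODC1 over OAZ2 the counts gave 6.45 to 7.998 in the late libraries, against 1.27 to 2.03 in the early ones. For ODC1 over SAT1, synthesis against breakdown, the late ratio was 1.32 to 1.57, against 0.173 to 0.227 in the early libraries, a log2 difference of 2.89. The ODC1 to SAT1 ratio thus moved the most of the 6 ratios computed.

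Ratios that leave ODC1 out moved less. AZIN1 over OAZ1, inhibitor against antizyme, was 1.57 to 1.98 in the late libraries, against 1.12 to 1.60 in the early ones, and 4 of the 6 late libraries lay above all early ones. SRM over SMS fell to 0.150 to 0.182 in the late libraries, against 0.187 to 0.283 in the early ones. AMD1 over SRM was 4.64 to 6.89 in the late libraries, against 2.49 to 4.50 in the early ones. The time points of a window are neighbors and not replicates, so no test is given.

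**Figure D3:**
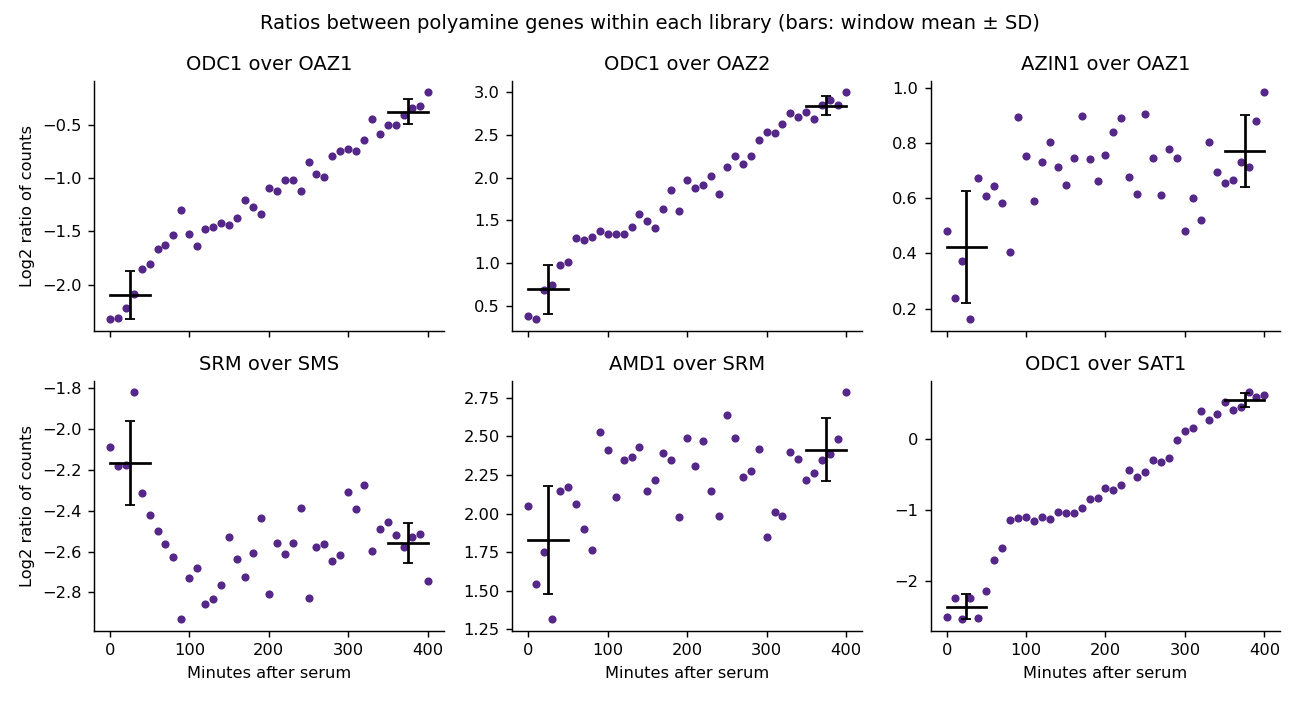
Log2 ratio of the counts of 2 polyamine genes within each of the 41 libraries (vertical axes) against minutes after serum. Horizontal lines span 0 to 50 and 350 to 400 min at the window mean, with bars of ± SD over 6 libraries. The 3 ratios with ODC1 on top end above their start, with flat stretches on the way. AZIN1 over OAZ1 and AMD1 over SRM scatter widely between neighboring libraries.

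Part of that scatter was shared between genes. After the fitted curve was removed, the deviations of OAZ1 went with those of SRM (Pearson's r = 0.80 over 41 libraries) and against those of AMD1 (-0.70) and AZIN1 (-0.68), and AMD1 and AZIN1 deviated together (0.82). The points of these correlations share libraries and size factors, and they are descriptions with no test. The main transcripts of AMD1 and AZIN1 are 37.9% and 38.0% G and C, against 54.0% for OAZ1 and 63.7% for SRM, and the part of base composition in these deviations was not tested. Over all genes, the libraries farthest from the curves were those at 20, 90, 250 and 300 min. At 300 min the log2 deviation was -0.24 for AMD1 and 0.14 for SRM. At 250 min the deviations were 0.15 for AMD1 and -0.27 for SRM. The library at 400 min deviated by 0.15 for AMD1 and -0.15 for SRM, and the highest AMD1 to SRM ratio of the course, 6.89, stands in that library.

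**Figure D4:**
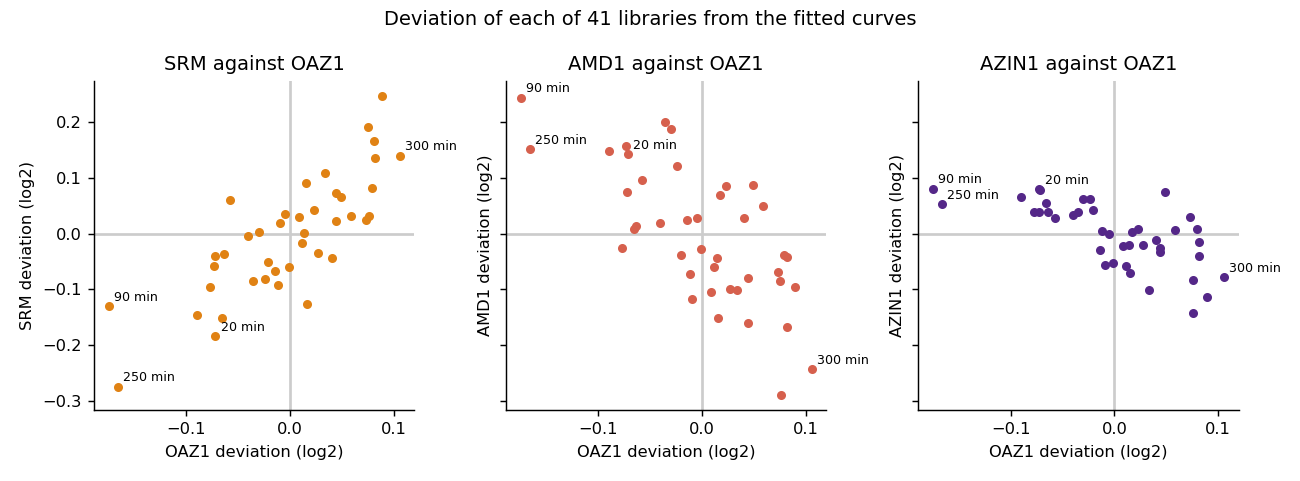
Deviation of each of the 41 libraries from the fitted curve, on the log2 scale, for SRM, AMD1 and AZIN1 (vertical axes) against OAZ1 (horizontal axes), with the libraries at 20, 90, 250 and 300 min named. SRM deviates with OAZ1 (r = 0.80), and AMD1 (-0.70) and AZIN1 (-0.68) against it.

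Per kb of main transcript, the antizyme messages were at opposite ends. Divided by the length of the main transcript in kb, median normalized counts were 6851 for OAZ1, 5402 for SAT1, 3055 for AZIN1, 2894 for SMS, 1360 for ODC1, 1102 for AMD1, 607 for SRM and 498 for OAZ2. With the length of all annotated exons of the gene, SMS (2314), OAZ1 (2289), SAT1 (2283) and AZIN1 (2091) were close to each other, ahead of ODC1 (1018), SRM (404), AMD1 (370.0) and OAZ2 (126). The order of the first 4 and of AMD1 and SRM thus depends on the length used. Per kb of main transcript, ODC1 was at 2564 at 400 min, against 568 at 0 min, and OAZ1 at 6335, against 6104. Processed pseudogenes of AMD1, OAZ1, SMS and SRM had at most 13 counts in a library, and AMD1P3, the most counted, came to 0.157% of AMD1.

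In the annotation ODC1 spans bases 10439968 to 10448327 of chromosome 2, SRM 11054584 to 11060020 of chromosome 1, OAZ1 2269509 to 2273490 of chromosome 19 and OAZ2 64687573 to 64703281 of chromosome 15. AMD1 spans 110874770 to 110898879 of chromosome 6, SMS 21940709 to 21994837 and SAT1 23783173 to 23786210 of chromosome X, and AZIN1 102826111 to 102893864 of chromosome 8.

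Against the whole transcriptome the synthesis genes were near the top of the range of change. Of 14131 genes with a mean normalized count of at least 50, 97.6% had a lower log2 change at 400 min than ODC1, 95.8% than AMD1, 95.6% than SMS, 92.6% than SRM and 73.0% than AZIN1. OAZ1 stood at 53.6%, OAZ2 at 23.0% and SAT1 at 8.34%. The genes most like each member were ranked by Pearson's r of log2(normalized count + 1) over the 41 libraries among 11137 protein-coding genes. STC2 (0.98), MYL12A (0.98) and NANS (0.98) were most like ODC1. For AMD1 they were CYCS, NOC3L and GFM1 (0.996 to 0.994). SRM was most like PXN (0.990), with TOMM40 (0.988) also near the top, and SMS was most like RRAS2, CORO1C and EAF1 (0.993 to 0.990). BTG1 (0.96), FOS (0.94) and BCL2L11 (0.94) were most like SAT1. AZIN1 was closest to RNF11, FAM13B and SYAP1 (0.95 to 0.94), and OAZ2 to CD99, FKBP9 and PLEKHA4 (0.95 to 0.94). OAZ1 had the weakest likeness, with RHOC (0.91), ENSG00000271810 (0.89) and ATP6V0D1 (0.88). All points share the libraries and the time axis, and these values are descriptions.

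Beyond the 8 genes, 29 other genes of polyamine metabolism were listed, of which 24 were tested. At 400 min 13 were higher than at 0 min and 6 were lower, with a median log2 change of 0.38. Of all genes 24.2% were higher and 22.4% lower at that time, and these shares are the background of each list count below. ARG1, AGMAT, MAT1A, EIF5A2 and ATP13A4 did not pass the filter.

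Upstream, of 6 tested genes that supply arginine and ornithine, 5 were higher at 400 min (24.2% of all genes) and 1 lower (22.4%). SLC7A1, the main carrier of arginine into cells, had 2985 normalized counts at 400 min and 607 at 0 min, a log2 change of 2.32 ± 0.092 (edgeR adjusted p = 1.03e-25), and it was already higher at 60 min (0.85 ± 0.085). The lower gene was ARG2, the mitochondrial arginase that makes ornithine from arginine, with 155 at 400 min and 311 at 0 min. Of the genes that make S-adenosylmethionine, the substrate of AMD1, MAT2A, the catalytic subunit, had 20834 normalized counts at 400 min and 13398 at 0 min (log2 change 0.64 ± 0.058). Before that MAT2A was lower, by a log2 change of -0.27 ± 0.053 at 120 min (adjusted p = 6.17e-05), with its lowest, 10471, at 70 min. MAT2B, its regulatory partner, had 1521 normalized counts at 400 min and 2604 at 0 min (-0.75 ± 0.058).

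Downstream, MTAP, which clears the methylthioadenosine left by SRM and SMS, had 3159 normalized counts at 400 min and 650.5 at 0 min, a log2 change of 2.18 ± 0.10 (adjusted p = 5.04e-23). It led its salvage list of 5 genes, of which 3 were higher (24.2% of all genes) and 1 lower (22.4%) at 400 min. In the hypusine pathway, which uses spermidine to modify the translation factor EIF5A, EIF5A itself had 9579 normalized counts at 400 min and 4892 at 0 min (0.98 ± 0.080). DOHH, the hydroxylase of that pathway, rose by 1.20 ± 0.22 on the log2 scale, and DHPS, which transfers the spermidine part, had a log2 change of -0.12 ± 0.12 (adjusted p = 0.42). Among transport genes ATP13A3, an ATPase linked to polyamine uptake, had 22457 normalized counts at 400 min and 4439 at 0 min (2.20 ± 0.23). ATP13A2, which moves polyamines out of lysosomes, and SLC18B1, a vesicular carrier, had log2 changes of 0.22 ± 0.14 and -0.11 ± 0.13 (adjusted p = 0.19 and 0.48).

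Breakdown genes split. SMOX, which oxidizes spermine back to spermidine, had 1267 normalized counts at 400 min and 501 at 0 min, a log2 change of 1.39 ± 0.12 (adjusted p = 5.19e-14), with its highest, 1772, at 240 min. PAOX, which oxidizes the acetylated forms that SAT1 makes, had 18.6 at 400 min and 91.3 at 0 min (-1.97 ± 0.26), and SAT2, a relative of SAT1, 588 and 820 (-0.53 ± 0.084). Of the paralogs of the control genes, AZIN2 had 66.6 normalized counts at 400 min and 204 at 0 min (-1.38 ± 0.15), and OAZ3, known for its role in the testis, 25.5 and 23.9 (0.05 ± 0.34, adjusted p = 0.91). AZIN2 and AZIN1 thus moved in opposite directions.

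**Figure D5:**
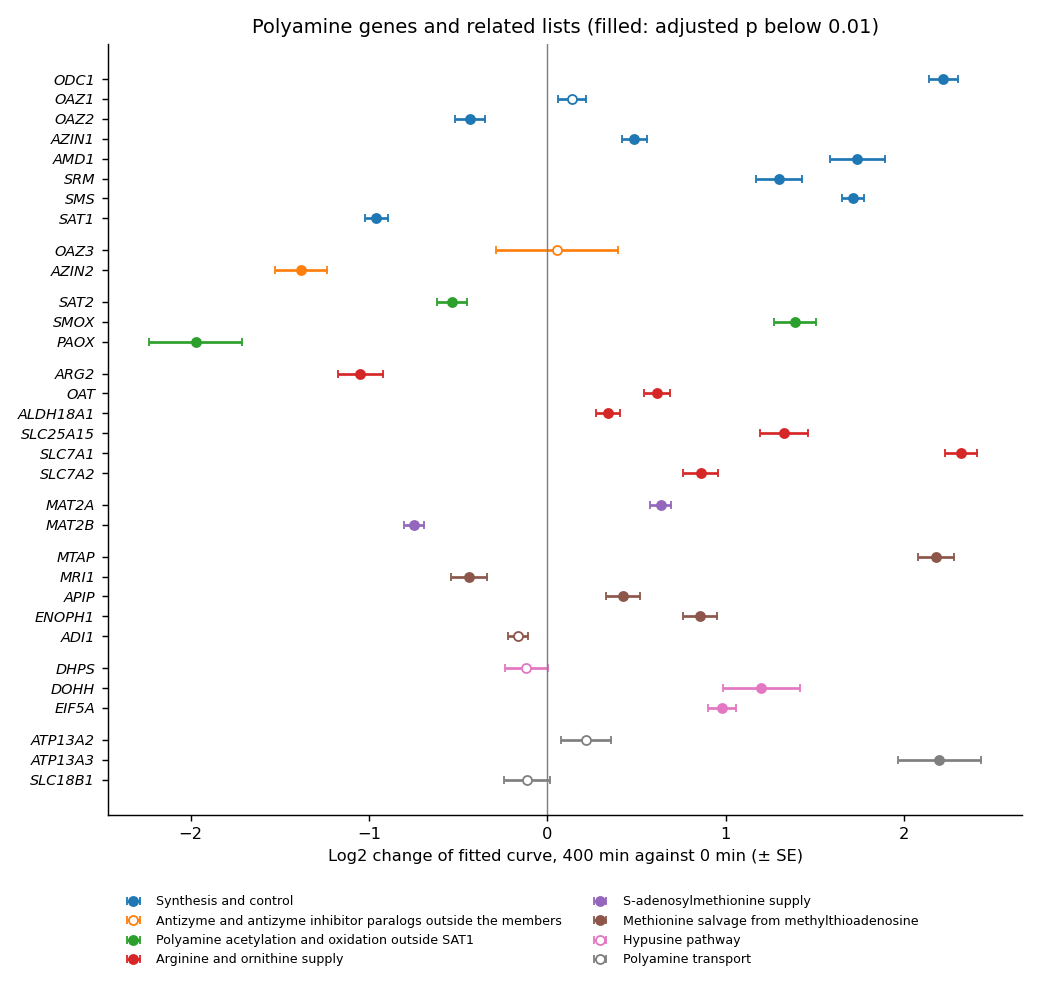
Log2 change of the fitted curve between 400 and 0 min (horizontal axis, bars of ± SE) for the 8 polyamine genes and 24 tested genes of related lists, 1 row per gene, filled where the adjusted p was below 0.01. ODC1, SLC7A1, ATP13A3 and MTAP lie above 2, and PAOX, AZIN2 and ARG2 lie below -1.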

How the data were processed

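Total RNA depleted of ribosomal RNA was sequenced from T98G cells in 41 libraries, 1 per time point, pooled and run together. Per the paper's methods and processing notes, the authors removed adapters (cutadapt 1.11) and mapped the pairs with STAR 2.5.2a, on GRCh38. The deposited counts are from featureCounts, by strand and over the exons of GENCODE release 29, with multi-mapping reads, and reads over more than 1 gene, counted once for every match. The deposited signal values are those counts divided by the DESeq2 1.24.0 size factor of the library. Size factors recomputed from the counts differed from them by at most 3.6e-15 of their value. Symbols, positions and transcripts come from GENCODE release 44 on the same genome, matched by gene identifier, and the main transcript is the one tagged canonical there.

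Genes with over 10 counts in 1 library and over 2 in 3 consecutive time points were fitted in edgeR 4.0.16 (R 4.3.3). Time entered as a natural spline (7 degrees of freedom; inner knots 20, 40, 60, 100, 160 and 260 min) with robust quasi-likelihood dispersions, which leaves 33 residual degrees of freedom. With 1 library per time point, p-values measure the scatter about the curves, which may be technical. The Ljung–Box test was run at lag 1 on normalized counts. The fit was tested on simulated counts with independent noise and changes that built up steadily over time. That simulation does not bear on early transient changes or on deviations shared between genes. Timing, ratios and likeness used Python 3.11.15, numpy 2.4.6, scipy 1.17.1 and pandas 2.3.3, and the plots matplotlib 3.10.9.

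The 8 genes, the related lists and the spline were chosen with earlier results of these data known. Named genes are the 8, the called gene with the largest change at 400 min of each related list, lists of 3 or fewer genes in full, MYC, and the 3 most alike protein-coding genes (mean normalized count of at least 100) of each of the 8, of which 1 is not reported here. ARG2, EIF5A, DOHH, DHPS, ATP13A2, SLC18B1 and the genes of the MYC network other than MYC were named after their values were seen. Alternatives changed the scaling (TMM, library size, spike-ins), filter, spline, libraries, threshold and test (DESeq2 1.42.0, windows of time). Those that leave out 1 library at 30, 60, 120, 240, 300 or 400 min were chosen after seeing the data.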

Additional observations from a re-analysis of the deposited data

How the results depend on the processing

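Over 22 other settings of the fit, 966 of 1056 log2 changes of the 8 genes kept their direction and side of the threshold, 82 lost the call, 7 gained it and 1 reversed. The calls of ODC1, AMD1, SRM, SMS and SAT1 at 400 min held in all of them. Those of AZIN1 at 240 and 400 min were each made in 20 of 23 settings, counting the fit used. Both were lost with spike-in size factors, without the 0 min library and at a change of at least 1.5-fold. Not every changed count is given below. No paired analysis was possible because each time point has 1 library. The reversed value was that of SAT1 at 30 min, -0.17 with a spline of 5 degrees of freedom (0.45 in the fit used). Spike-in size factors, which shift the median change of all genes at 60 min to -0.21, against 0.02, left 0, 0 and 2 genes higher at 30, 60 and 120 min, 0 lower at 120 and 240 min and 1 at 400 min, and 1 higher and 0 lower between 400 and 240 min. Without the 0 min library, where the curve at 0 min is an extrapolation, 0, 1, 2 and 3 were higher at 30, 60, 120 and 240 min, and 0, 0 and 1 lower at 120, 240 and 400 min. With every second time point, 1 was higher at 30 min and 3 at 120 min, and 1 lower at 240 min and between 400 and 240 min. At a change of at least 1.5-fold, 0, 1 and 3 were higher at 30, 60 and 120 min, 0, 0 and 1 lower at 120, 240 and 400 min, and 1 higher and 0 lower between 400 and 240 min. Windows of 3 libraries gave 0 higher at 30 min, 1 lower at 240 min and 1 lower between 400 and 240 min. At 240 min 1 gene was lower with no filter, without the 4 libraries farthest from the curves and without the 3 smallest, and 1 was lower between 400 and 240 min with equally spaced knots (7 or 10 degrees of freedom) and without the 400 min library. The share of all genes called under each of these settings is not given, so these counts have no background to be set against. The cause of these changes was not tested. With 3 libraries per window the log2 differences of ODC1 over OAZ1, OAZ2 and SAT1 were 1.998, 2.45 and 3.04. Counts went as low as 215, for SRM, and each time point has a single library, which both limit the precision.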

Other observations

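MYC, whose product with MAX binds E-boxes such as those of the ODC1 and SRM windows, had a normalized count of 734 at 0 min, 5948 at 80 min, its highest, and 4439 at 400 min. Its log2 change against 0 min was 1.62 ± 0.16 at 30 min, 2.91 ± 0.15 at 60 min and 2.88 ± 0.15 at 400 min (SE; edgeR adjusted p = 3.86e-10, 8.74e-19 and 2.62e-19). Of the 8 genes of the MYC network list, MYC and MNT were called upward at 60 min, against 5.15% of all genes. At 400 min the list held 2 higher genes, against 24.2% of all genes, and 3 lower genes, against 22.4%. MLX, a partner of the network's other arm, was the other higher gene, with 1769 normalized counts at 400 min and 906 at 0 min. MXD4, a repressor that competes with MYC for MAX, had 387 at 400 min and 1478 at 0 min (-1.78 ± 0.11), and MXI1 and MNT, of the same repressor class, had 419 and 181 at 400 min, against 634 and 301 at 0 min. MAX, the shared partner, had 666 at 400 min and 689 at 0 min (log2 change -0.04, adjusted p = 0.70). Whether MYC bears on the polyamine genes was not tested.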
